A study of Mus musculus with 6 samples.

Results

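The angiogenic and hypoxia genes of mouse quadriceps were examined in H3K27ac ChIP-seq, which maps acetylation of lysine 27 on histone H3, a mark of active promoters and enhancers. The genes were the VEGF ligands Vegfa, Vegfb, Vegfc and Pgf, the VEGF receptors Kdr and Flt1, the hypoxia factors Hif1a and Epas1, and the angiopoietins Angpt1 and Angpt2. Every peak that the deposited lists annotate to one of these 10 genes was taken, at promoters and at a distance. This gave 89 of the 46988 peaks in control mice and 81 of the 40721 peaks in detrained mice.

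All mice were wild type males, C57BL/6 in the labels and C57BL/6J in the methods, and were placed in single cages at 8 weeks of age. Control mice were sedentary, in cages without wheels. Detrained mice had free access to running wheels for 4 weeks and were then rested for 72 hours before harvest. Each group had 2 H3K27ac libraries and 1 input library of sheared chromatin without precipitation, and by the methods each sample was a single quadriceps of 1 animal. The labels give the strain of both inputs under other names than that of the ChIP libraries (C57BL/7 and C57BL/8).

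VEGF-A is the main signal that calls capillaries to grow into muscle, and it acts on endothelial cells through the receptor KDR. FLT1 binds VEGF-A, VEGF-B and placental growth factor (Pgf) and in part acts as a sink for VEGF-A. The hypoxia factors HIF-1α (Hif1a) and HIF-2α (Epas1) are stabilised at low oxygen and bind the short sequence RCGTG in hypoxia response elements, Vegfa being their best known target. Angiopoietin 1, made by cells around vessels, steadies vessels through the receptor TIE2, and angiopoietin 2, made by endothelial cells, opposes it in many settings. Quadriceps is mostly muscle fibre by mass, with capillary endothelium between the fibres.

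Depth was similar among the 4 ChIP libraries, named C2 and C3 in control and Ex1 and Ex2 in detrained mice, with 20805019 to 22400894 tags each, of which 44.7% to 49.4% lay in listed peaks. The inputs held fewer tags in control (10812470) than in detrained mice (21298438). Between 14517 and 17123 tags per library lay in the peaks of the 10 genes. Levels are given as density, the tags per kb of peak per 10000000 total tags of the library. The number of tags in a library was estimated from the pooled tags of its group and the deposited log2 values, which are shrunken, so the gap between libraries of a group is understated at weak peaks. Skeletal muscle fibre genes were marked in both lists (6 of 7, with no peak listed under Tnnt3), as were all 6 endothelial markers. Of 3 genes not active in muscle Ins2 had 1 peak in detrained mice, and no peak was listed under Alb and Neurod1. A gene without a listed peak cannot be told from a gene name not used in the lists.

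A few stretches are shown because peaks of high density, the receptors and the shared peak with the largest difference lie over them. Capitals mark the hypoxia response element cores ACGTG and GCGTG, the ERR site AAGGTCA, the AP-1 site TGANTCA, the E-box CAGCTG and the ETS site CCGGAA on either strand. The first 4 are the 250 bases before a start site, from RefSeq on GRCm38.p6, read on the strand of the gene (Hif1a chr12:73907617-73907866 plus, Kdr chr5:75978456-75978705 minus, Flt1 chr5:147726012-147726261 minus, and the downstream Vegfa start chr17:46025164-46025413 minus). The last is the centre of a control peak in intron 4 of Pgf, chr12:85170239-85170538, on the plus strand of the same build.
Hif1a: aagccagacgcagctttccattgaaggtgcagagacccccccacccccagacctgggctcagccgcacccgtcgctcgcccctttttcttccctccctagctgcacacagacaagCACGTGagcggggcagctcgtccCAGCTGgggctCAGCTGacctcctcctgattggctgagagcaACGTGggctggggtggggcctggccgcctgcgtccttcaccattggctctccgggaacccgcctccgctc
Kdr: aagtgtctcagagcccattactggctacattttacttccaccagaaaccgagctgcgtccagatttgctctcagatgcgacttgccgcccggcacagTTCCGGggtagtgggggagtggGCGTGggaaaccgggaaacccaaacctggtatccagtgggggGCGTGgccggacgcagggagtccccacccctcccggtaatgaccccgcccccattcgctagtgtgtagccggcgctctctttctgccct
Flt1: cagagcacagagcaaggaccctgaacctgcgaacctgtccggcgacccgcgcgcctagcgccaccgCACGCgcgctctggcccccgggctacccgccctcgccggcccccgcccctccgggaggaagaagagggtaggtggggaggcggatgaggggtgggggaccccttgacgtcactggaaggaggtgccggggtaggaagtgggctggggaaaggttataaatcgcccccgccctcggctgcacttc
Vegfa: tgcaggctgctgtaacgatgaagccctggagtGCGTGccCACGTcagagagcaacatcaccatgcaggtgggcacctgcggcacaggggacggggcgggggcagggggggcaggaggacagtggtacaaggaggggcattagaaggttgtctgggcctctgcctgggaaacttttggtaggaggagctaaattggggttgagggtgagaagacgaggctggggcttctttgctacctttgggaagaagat
Pgf intron 4: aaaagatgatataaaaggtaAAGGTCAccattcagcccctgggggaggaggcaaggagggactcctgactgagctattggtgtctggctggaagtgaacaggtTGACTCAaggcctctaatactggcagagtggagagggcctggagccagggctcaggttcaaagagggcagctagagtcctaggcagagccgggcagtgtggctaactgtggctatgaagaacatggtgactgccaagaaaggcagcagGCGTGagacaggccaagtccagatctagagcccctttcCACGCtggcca

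A peak covered the start site in both groups in each of these 4 upstream stretches. RefSeq promoters were at hand for 7 of the 10 genes, in 9 windows of 250 bases before to 50 after a start, and Epas1, Angpt1 and Angpt2 are named only. ACGTG stood in 2 of the 9 windows and in 19.6% of 32851 promoters of the same length, and GCGTG in 5 of 9 and in 32.4% of promoters. In Hif1a one ACGTG lies within the palindrome CACGTG and is read on both strands, 134 and 135 bases before the start, and another lies at 70 bases, with 2 E-boxes between them. In Kdr 2 GCGTG cores lie 131 and 89 bases before the start, and an ETS site lies at 153 bases. In the downstream Vegfa window GCGTG and ACGTG lie 218 and 211 bases before the start, and the window at the upstream Vegfa start held none of the motifs. The downstream start (46025163) lies past the upstream start (46032377) on the minus strand. Its window is thus sequence inside the gene and not the sequence before the upstream start. The Pgf intron stretch held an AP-1 site (in 9.85% of all 46988 control peak centres of this length), an ERR site (6.66%) and 2 GCGTG cores (21.97%). The MEF2 site was in none of these windows (3.69% of promoters, 4.99% of control peak centres). These matches describe letters and not binding.

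The peaks were spread unevenly over the genes. Epas1 had 24 control and 23 detrained peaks, Flt1 16 and 15, Kdr 15 and 15, Hif1a 9 and 9, Angpt1 9 and 5, Vegfa 6 and 4, Pgf 5 and 4, Angpt2 3 and 4, and Vegfb and Vegfc 1 each. Most lay away from start sites: 56 of the control peaks were annotated to introns and 28 to intergenic sequence, and 1 to a promoter. Nearest-gene annotation placed 12 control peaks inside other genes, 9 of them in Prkce upstream of Epas1 and 1 each in Prkch, Mcph1 and Dnajc4. Per kb the typical peak of these genes was weaker than the typical peak of the lists, with a median density of 23.4 against 27.6 in control and 24.2 against 30.2 in detrained mice.

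**Figure D1:**
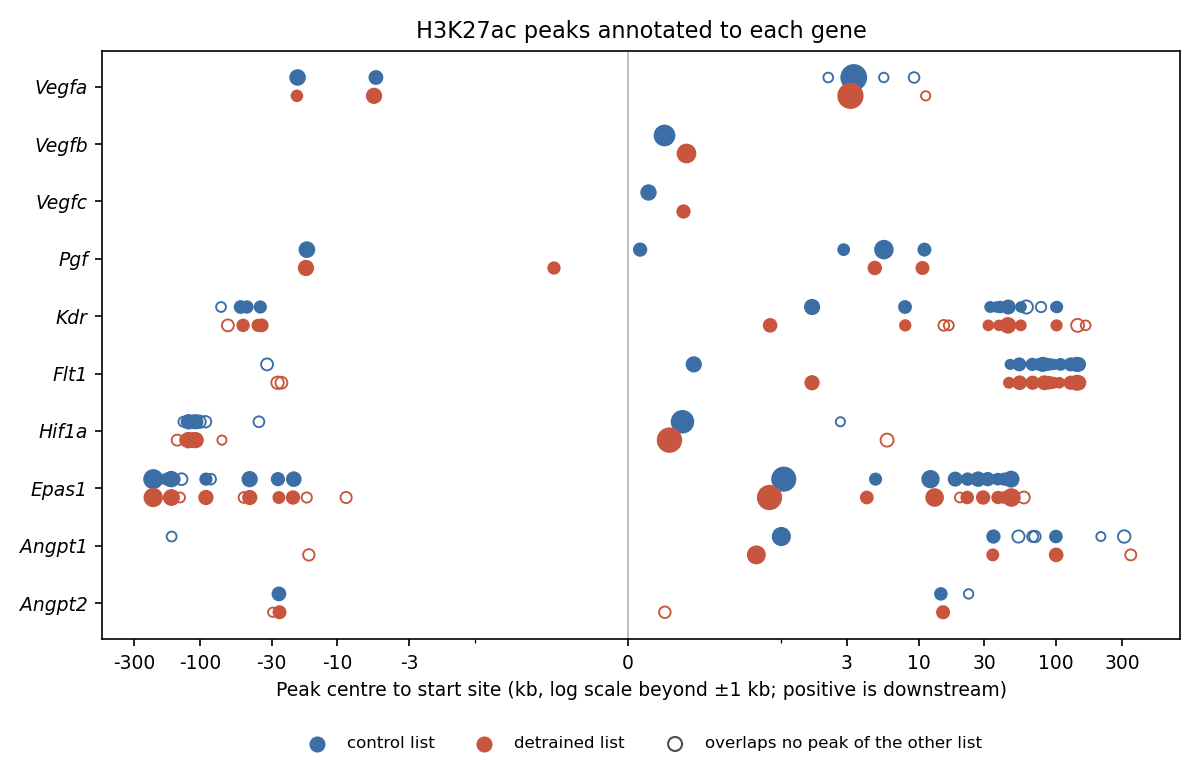
H3K27ac peaks of the 10 genes by the distance of their centre from the start site, in kb on a log scale beyond 1 kb, with the control list above the detrained list in each row. Marker area grows with mean density, open markers overlap no peak of the other list, and the reader should see dense rows for Epas1, Kdr and Flt1 and single peaks at Vegfb and Vegfc.

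A control peak and a detrained peak were taken as shared when they matched one to one and the overlap covered 50% or more of both, which gave 44 shared peaks for the 10 genes and 26436 over all genes. Over the 44 the median log2 density of detrained minus control was 0.02, beside -0.03 over all shared peaks, and the 5th and 95th percentiles over all shared peaks were -0.46 and 0.40. In 32 of the 44 the libraries of the 2 groups overlapped. Both detrained libraries lay above both control libraries in 6 (13.6%, against 21.3% of all shared peaks) and below in 6 (13.6%, against 27.2%). One shared peak, in intron 4 of Pgf, was at least 1.5-fold lower without overlap, a share of all shared peaks of 2.06%, and none was at least 1.5-fold higher, against 1.1%. That peak was also past 2-fold (0.0605% of all shared peaks were at least 2-fold lower and 0.0151% at least 2-fold higher). The tables were normalized separately and hold no counts per library, so no test was made between groups, and an exact permutation test of 2 libraries against 2 cannot give a 2-sided p below 0.333.

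Peak length changed this picture. Of the 44 shared peaks 33 (75%) were longer in detrained mice, against 51.6% of all shared peaks, and the median log2 ratio of lengths was 0.22 against 0.01. Counted as tags per peak without length, 18 of the 44 were higher in both detrained libraries (24.7% of all shared peaks were) and 4 were lower (28.8%). By tags per peak 8 were at least 1.5-fold higher without overlap and 2 at least 1.5-fold lower, where 5.52% and 5.08% of all shared peaks were. By both measures at once 3 peaks were higher (6.37% of all) and 4 lower (9.60%). The 3 were a peak 107 kb upstream of Hif1a, one 90.2 kb upstream of Epas1 and one 14.5 kb downstream of the Angpt2 start. The 4 lay in intron 4 of Pgf, intron 3 of Kdr, 27.1 kb upstream of Epas1 and 35.0 kb into Angpt1.

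**Figure D2:**
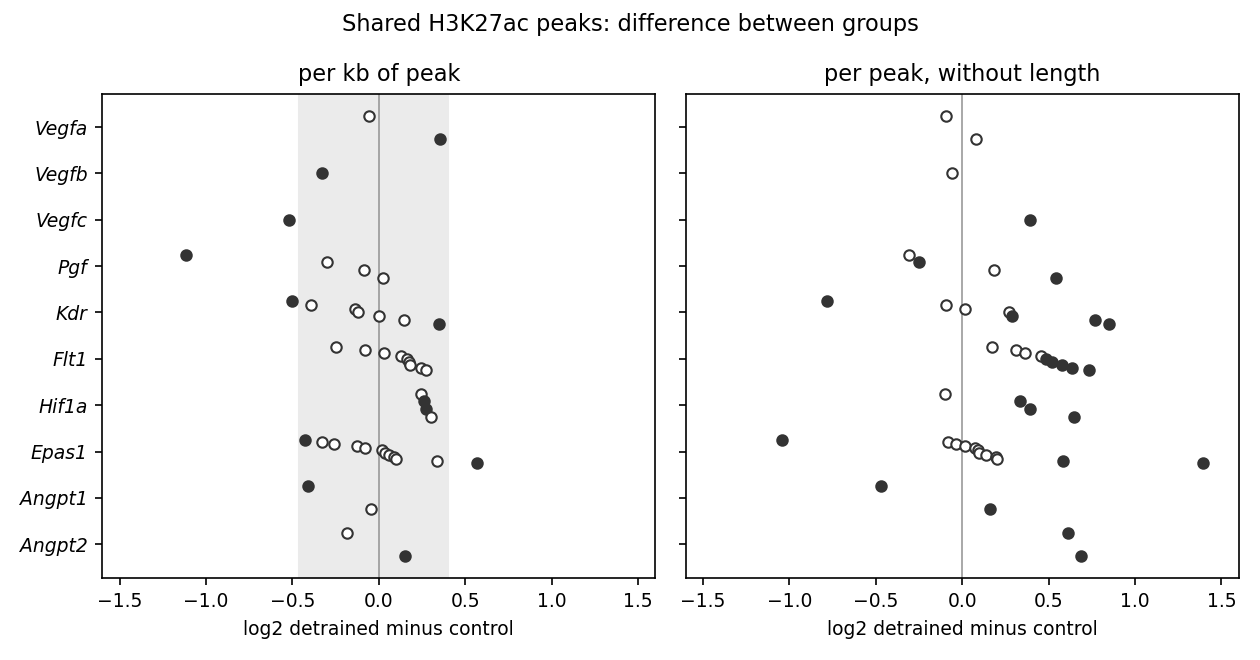
Log2 difference of detrained minus control for each of the 44 shared peaks, per kb of peak (left) and per peak (right), by gene. Filled points have no overlap between the libraries of the groups, and the grey band spans the 5th to 95th percentile of all shared peaks per kb (-0.46 to 0.40). The Pgf peak at -1.11 stands outside the others on the left and moves to -0.25 on the right.

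Vegfa carried the densest peak of the set. It ran for 9148 bp over the start site and intron 1 at chr17:46024425-46033573, held 5020 control tags, and made up 82.6% of all control tags in Vegfa peaks. Control density was 110 (C2) and 139 (C3), and detrained density 122 (Ex1) and 115 (Ex2), means of 124 ± 20.7 and 119 ± 5.06 (SD, n = 2). The detrained libraries lay inside the range of the control libraries. A second peak, 5.25 kb upstream, was lower in density, at 28.4 and 30.7 in control and 35.4 and 40.2 in detrained libraries. There both detrained libraries lay above both control libraries (log2 0.35), although the tags per peak differed by only 0.08 and overlapped, because the detrained peak was 4639 bp long and the control peak 5604 bp. The peak 19.5 kb upstream, 760 bp in the control list and 2404 bp in the detrained list, could not be paired. Of the 6 control Vegfa peaks 3, weak and downstream of the start with 36 to 96 tags, overlapped no detrained peak (27.9% of all control peaks). Of the 4 detrained Vegfa peaks 1, of 34 tags, overlapped no control peak (18% of all detrained peaks).

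Vegfb, whose product binds FLT1, had 1 peak in each list. It covered the Vegfb start site and the end of the neighbouring gene Dnajc4, so the signal of the 2 genes cannot be told apart. Its density was 76.1 and 77.7 in control and 63.6 and 58.9 in detrained libraries. Both detrained values lay below both control values (log2 -0.33), and the difference in tags per peak was -0.06, with overlap.

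Vegfc, which acts mainly on lymphatic vessels, also had a single peak over its start. Its density was 36.6 and 40.1 in control and 27.9 and 25.6 in detrained libraries. The groups did not overlap (log2 -0.52), but the direction turned with the measure. The peak was 1315 bp long with 222 tags in control and 2480 bp long with 285 tags in detrained mice, and its tags per peak were higher in both detrained libraries (log2 0.39).

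Pgf, a ligand of FLT1, gave the largest difference in density. In intron 4, at chr12:85169432-85171345, control density was 59.2 and 60.3 and detrained density 26.8 and 28.4, means of 59.7 ± 0.779 and 27.6 ± 1.17 (SD, n = 2). Density was 2.17-fold lower in detrained mice, and each detrained library lay below each control library by far more than the libraries of a group lay apart. The control peak was 1913 bp long and held 504 tags. The detrained peak was 3481 bp long, held 414 tags and reached into a second control peak of 759 bp and 64 tags in intron 2, of which it covered less than 50%. In pooled tags per library total the detrained peak held 0.841 of the control peak (95% exact interval 0.737 to 0.960, which covers counting error only). With both control peaks added together, which takes in sequence that the detrained peak does not cover, the log2 difference in tags was -0.42. The log2 difference was -1.11 per kb and -0.25 per peak, and these differ by the ratio of the peak lengths.

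The 3 other shared Pgf peaks had densities that overlapped between the groups. Over the downstream start site density was 28.7 and 24.5 in control and 18.8 and 24.7 in detrained libraries, with overlap. The strongest Pgf peak by tags, 16.7 kb upstream, had 44.0 and 36.7 in control and 36.0 and 39.7 in detrained libraries, also with overlap. A peak 11.0 kb downstream of the start held 193 tags in control and 276 in detrained mice, and its tags per peak were higher in both detrained libraries (log2 0.54).

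**Figure D3:**
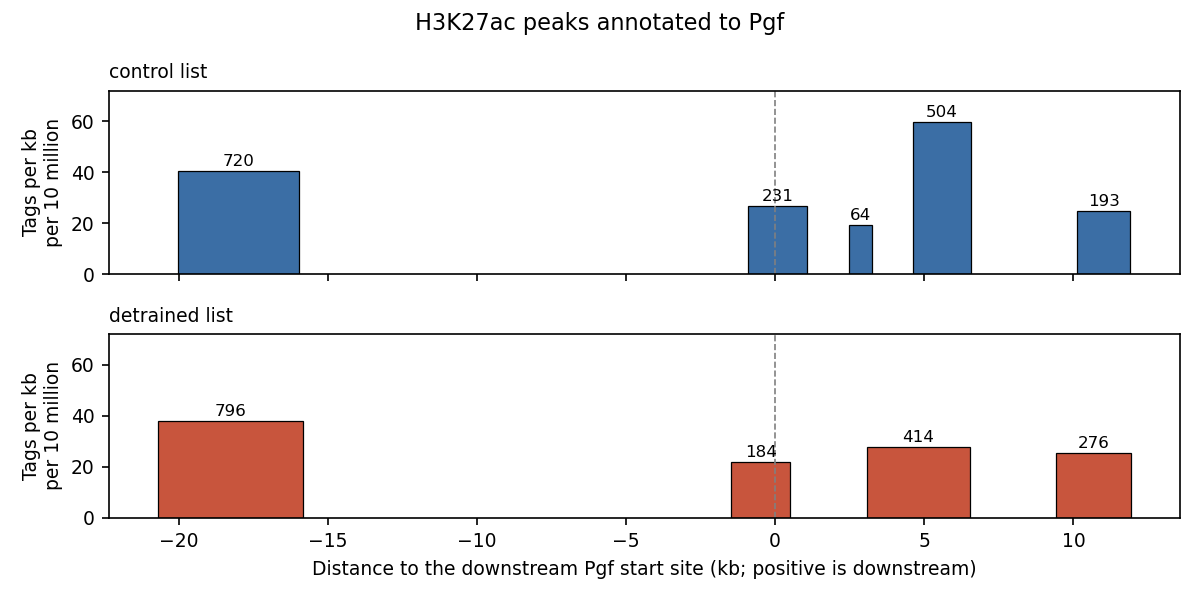
The peaks annotated to Pgf in the control list (top) and the detrained list (bottom), drawn to scale by distance from the downstream start site in kb. Bar height is mean density in tags per kb per 10000000, bar width is peak length, and the number above each bar is its pooled tags. The control bars of 504 and 64 tags face a single, wider detrained bar of 414 tags.

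At Kdr, the main signalling receptor for VEGF-A, 7 shared peaks ranged from -0.50 to 0.35 on the log2 density scale. The peak over the start site and intron 1 had a density of 28.4 (C2) and 46.6 (C3) in control, and of 34.9 (Ex1) and 22.04 (Ex2) in detrained libraries. These values overlapped, and the libraries of a group lay further apart (37.5 ± 12.9 and 28.5 ± 9.07, SD, n = 2) than the group means. Without overlap were 2 of the 7 Kdr peaks, against 48.5% of all shared peaks. In intron 3 density was 21.3 and 27.8 in control and 18.7 and 15.9 in detrained libraries (log2 -0.50, and -0.78 in tags per peak). At the 3′ end of the gene density was 31.3 and 29.9 in control and 47.6 and 32.0 in detrained libraries, a log2 difference of 0.35 that was -0.094 in tags per peak. Single libraries weighed on both: without C3 the intron 3 difference was -0.31, and the difference at the 3′ end was 0.06 without Ex1 and 0.64 without Ex2. By tags per peak 3 distal Kdr peaks, 50.5 to 101 kb from the start, were higher in both detrained libraries (24.7% of all shared peaks were). The detrained list alone held 5 Kdr peaks, the strongest 143 kb downstream of the start with 297 tags, and the control list alone held 4.

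At Flt1, 9 shared peaks lay within the gene, with log2 density differences of -0.25 to 0.27, and 0 of the 9 were without overlap between the groups, against 48.5% of all shared peaks. The peak at the start site had 31.4 (C2) and 43.8 (C3) in control, and 38.9 (Ex1) and 24.96 (Ex2) in detrained libraries. The strongest by tags, 79.6 kb into the gene at intron 11, had 27.4 and 35.3 in control and 35.7 and 24.3 in detrained libraries (log2 -0.08, and 0.74 per peak). All 9 shared Flt1 peaks were longer in the detrained list (51.6% of all shared peaks were), and 5 of them held more tags per peak in both detrained libraries (24.7% did). Summed over all Flt1 peaks there were 774 and 951 tags per 10000000 in control and 1364 and 947 in detrained libraries. The covered length was 34.2 kb in control and 42.9 kb in detrained mice, with 25.2 and 26.8 tags per kb.

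At both receptors the libraries of a group lay apart in a common order. C3 was above C2 in 13 of the 16 shared Kdr and Flt1 peaks and Ex1 above Ex2 in 16 of 16, with both at once in 13. Over all shared peaks C3 was above C2 in 61.3% and Ex1 above Ex2 in 62.2%, and both held in 40.1%. The median log2 gap was 0.30 for C3 over C2 and 0.56 for Ex1 over Ex2 at the receptors, against 0.07 and 0.06 over all shared peaks. The other 8 genes together had medians of 0.11 and 0.12. Among their 28 shared peaks C3 was above C2 in 23, Ex1 above Ex2 in 19 and both held in 18. Epas1 had median gaps of 0.24 and 0.40 and Angpt2 (2 shared peaks) of 0.44 and 0.32, while Pgf had -0.21 and -0.19. The order was thus not particular to the receptors. The shared peaks of one gene are not independent, and these counts describe 4 libraries.

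Endothelial marker genes lay apart between libraries in the same order. Of the 6 markers Erg had 4 shared peaks, Tie1 2, and Cdh5 and Egfl7 1 each, while Pecam1 and Emcn had peaks but none shared. Over these 8 shared peaks the mean log2 density was 4.60 and 5.03 in the control libraries C2 and C3, and 5.17 and 4.73 in the detrained libraries Ex1 and Ex2. C3 was above C2 in 7 of 8 and Ex1 above Ex2 in 8 of 8. Summed over all their peaks the 6 genes had 3018 to 3923 tags per 10000000 in control and 3090 to 4237 in detrained libraries, over 100.01 and 98.9 kb. Muscle fibre genes (16 shared peaks) had 5.41 in C2 and 5.66 in C3, and 5.58 in both detrained libraries. C3 was above C2 in 14 of these 16, with a median gap of 0.34, so the gap between the control libraries was not particular to the receptors and endothelial markers, and Ex1 was above Ex2 in 8 of 16, with a median gap of 0.01. The fibroblast genes (7) had 5.15, 5.01, 5.26 and 5.37 in the order C2, C3, Ex1, Ex2. The part of endothelial content in the Kdr and Flt1 values was not tested, and in whole muscle fewer endothelial nuclei and less acetylation per nucleus cannot be told apart.

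**Figure D4:**
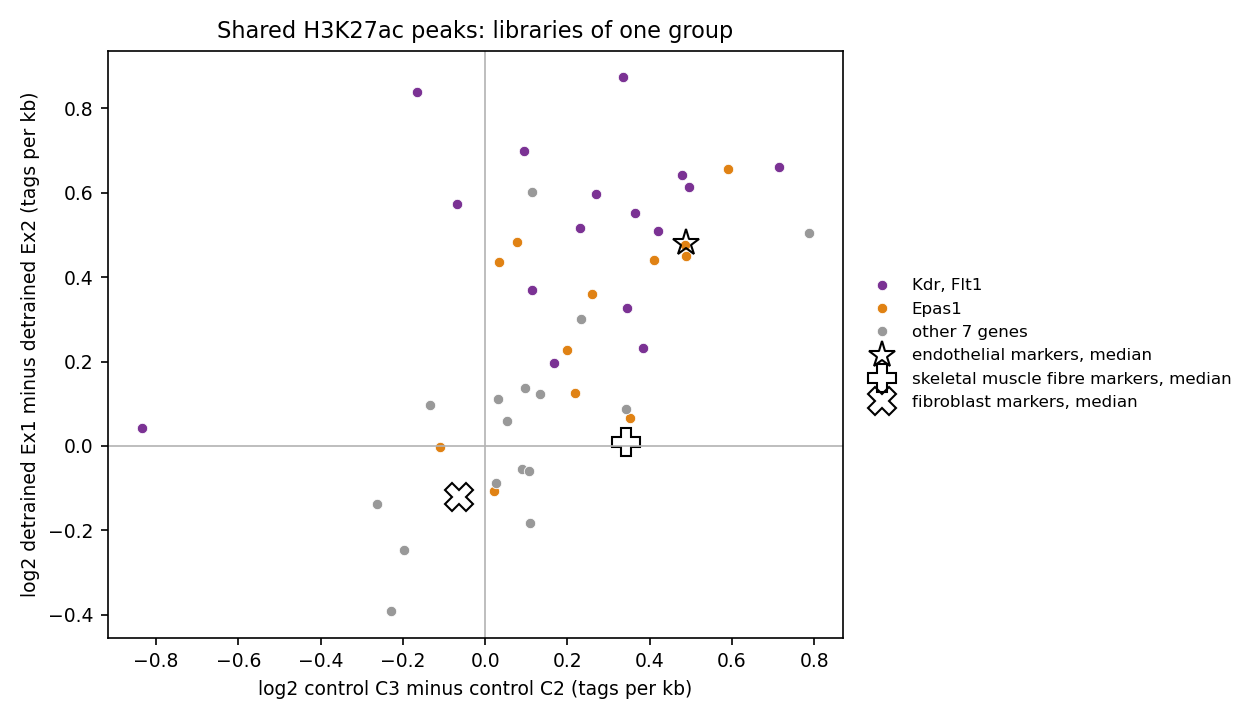
Each point is a shared peak, placed by the log2 density gap of C3 over C2 (x axis) and of Ex1 over Ex2 (y axis). Kdr and Flt1 points lie mostly at upper right, as does the median of the endothelial markers (star), while the muscle fibre median (plus) lies at 0.34 on the x axis and near 0 on the y axis, and the fibroblast median (cross) lies below 0 on both.

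Hif1a, the oxygen-regulated subunit of HIF-1, had its densest peak at the start site. Density there was 96.5 and 88.0 in control and 114 and 107 in detrained libraries, means of 92.2 ± 6.08 and 111 ± 5.29 (SD, n = 2). Both detrained libraries lay above both control libraries (log2 0.26), which was 1.2-fold. Here too the direction turned with length, as the control peak was 2934 bp long with 1196 tags and the detrained peak 2278 bp long with 1086 tags, and tags per peak differed by -0.10 with overlap. The Hif1a promoter printed above, with its CACGTG, lies in this peak.

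The 3 other shared Hif1a peaks lay 107 to 121 kb upstream, and all had a higher mean density in detrained mice, by log2 0.24 to 0.30. The one at 107 kb had 30.4 and 31.5 in control and 38.1 and 36.5 in detrained libraries, with no overlap, and 145 against 222 tags. It was higher per peak as well (log2 0.65), as were the other two. No other gene of the set had a higher mean density at each of its shared peaks. The 3 distal shared peaks lie in intergenic sequence beside Prkch, whose 3′ UTR holds an unshared detrained peak 123 kb from the Hif1a start. Their annotation to Hif1a thus also rests on distance alone. Of the 9 Hif1a peaks in each list 5 overlapped no peak of the other list. Over all genes 27.9% of control and 18% of detrained peaks overlapped none. In the detrained list 3 of those 5 lay in Prkch, the gene upstream, so their annotation to Hif1a rests on distance alone.

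Epas1 encodes HIF-2α, which is abundant in endothelium, and had more peaks than any other gene of the set. The start site peak had a density of 99.6 and 116 in control and 114 and 104 in detrained libraries, and the 10797 bp peak 12.2 kb into the gene had 45.02 and 57.5 against 54.2 and 51.7. Both overlapped, with log2 differences of 0.02 and 0.06. Of the 12 shared Epas1 peaks 2 were without overlap, against 48.5% of all shared peaks. These 2 were distal and pointed in opposite directions.

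The first, 90.2 kb upstream at chr17:86663204-86664105 in intergenic sequence, had 22.4 and 20.7 in control and 32.0 and 32.0 in detrained libraries. This was 1.49-fold higher (log2 0.57), the largest positive difference of the 44 and just short of 1.5-fold, and in tags per peak it was 85 against 219 (log2 1.39). The second, 27.1 kb upstream, had 25.9 and 27.3 in control and 23.3 and 16.7 in detrained libraries (log2 -0.43), with 187 against 89 tags (log2 -1.04), and its density difference was -0.67 without Ex1 and -0.19 without Ex2. Among the Epas1 peaks C3 was above C2 in 11 of 12 and Ex1 above Ex2 in 10 of 12, the order also seen at Kdr and Flt1. The peaks 161 to 225 kb upstream lie in introns of Prkce, and their 4 shared members had log2 differences of -0.13 to 0.10.

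Angpt1 had 9 control and 5 detrained peaks, the widest gap in number among the 10 genes. Its start site peak had 55.1 and 59.3 in control and 54.2 and 56.5 in detrained libraries, with overlap, while its tags per peak were higher in both detrained libraries (log2 0.16). A peak 35.0 kb into intron 1 had 25.9 and 27.6 in control and 19.7 and 20.5 in detrained libraries, without overlap, and was lower per kb (log2 -0.41) and per peak (-0.47). Of the 9 control Angpt1 peaks 6 overlapped no detrained peak, against 27.9% of all control peaks. Of these 6, 3 lay in intron 1, 53.1 to 70.0 kb from the start, with 74 to 153 tags. The strongest of the 6 lay 312 kb from the start in intergenic sequence at chr15:42363988-42366934, was 2946 bp long and held 353 tags. Only 0.930% of the 16126 control peaks with at least as many tags overlapped no detrained peak. Summed over its peaks Angpt1 had 359 and 388 tags per 10000000 in control and 222 and 236 in detrained libraries (log2 -0.71). The covered length was 12.7 kb in control and 6.34 kb in detrained mice, and the tags per kb of listed peak were higher in detrained mice, 36.1 against 29.4.

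Angpt2, the context-dependent antagonist of Angpt1, was weakly marked. At its start site a peak of 633 bp and 60 tags (95% exact Poisson interval 45.8 to 77.2, counting error only) was in the detrained list and none in the control list. The peak nearest the start in both lists, in intron 1, had 22.3 and 23.8 in control and 26.8 and 24.4 in detrained libraries, higher without overlap by log2 0.15 (0.08 without Ex1), with 219 against 327 tags. A peak 26.6 kb upstream, in intron 12 of Mcph1, had 21.5 and 37.0 in control and 29.6 and 20.8 in detrained libraries, with overlap, and was higher per peak in both detrained libraries (log2 0.69).

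**Figure D5:**
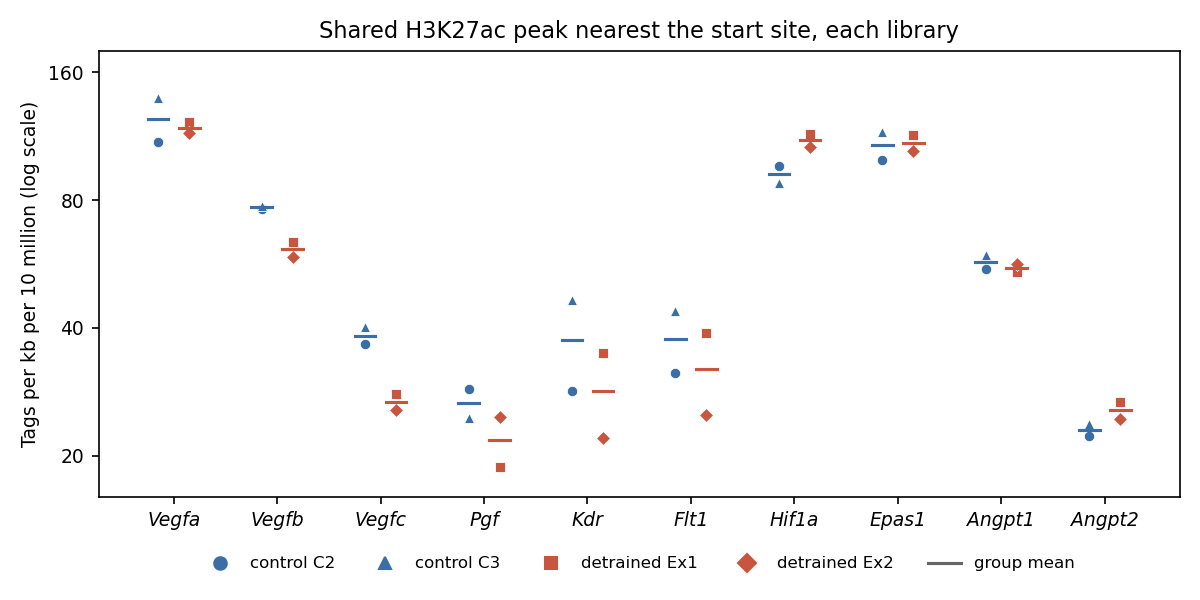
Density in each library at the shared peak nearest the start site of each gene, on a log scale, with group means as bars. Vegfa, Hif1a and Epas1 stand near 100 tags per kb per 10000000, Vegfb and Angpt1 lie between, and Kdr and Flt1 show the widest gaps between libraries of a group.

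Set in order by control density per kb, the shared peaks nearest the start ran Vegfa (124), Epas1 (108), Hif1a (92.2), Vegfb (76.9), Angpt1 (57.2), Vegfc (38.4), Flt1 (37.6), Kdr (37.5), Pgf (26.6) and Angpt2 (23.05). The control libraries of Vegfa and Epas1 overlapped, as did those of Vegfc, Flt1 and Kdr, and those of Kdr and Pgf. For Angpt2 this peak lay 14.5 kb from the start.

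Peaks of the 10 genes that overlapped no peak of the other list numbered 27 of 89 in control (30.3%, against 27.9% of all control peaks) and 24 of 81 in detrained mice (29.6%, against 18% of all detrained peaks). They were weak, with a median of 76 and 82 tags, where shared peaks had 356.5 and 392. The lists were called separately against inputs of different depth, and the part of that difference in which weak peaks were listed was not tested.

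The wider pathway was read from 27 further genes, of which 26 had a peak, with 51 shared peaks. Both detrained libraries lay above both control libraries in 11 of 51 (21.3% of all shared peaks did) and below in 19 (27.2% did), and the median log2 density difference was -0.06. By tags per peak 13 were higher (24.7% of all shared peaks) and 20 lower (28.8%), with a median of -0.05. Per kb none was at least 1.5-fold higher without overlap (1.1% of all shared peaks) and 2 of 51 were at least 1.5-fold lower (2.06%), at Car9 and Pfkfb3. Per peak 3 were at least 1.5-fold higher (5.52%) and 4 at least 1.5-fold lower (5.08%). Car9, a hypoxia-induced carbonic anhydrase, had 25.7 and 24.9 in control and 12.95 and 18.6 in detrained libraries at its promoter (log2 -0.70). The difference was -0.44 without Ex1 and -0.49 in tags per peak (124 against 88 tags), both short of 1.5-fold. Pfkfb3, which drives glycolysis and is induced by HIF, had 29.3 and 31.2 in control and 17.1 and 21.5 in detrained libraries in an intron 7.88 kb from the start (log2 -0.66). It was -0.49 without Ex1, also short of 1.5-fold, and -1.23 in tags per peak (322 against 135 tags). Among the 26 shared peaks of 10 HIF targets 12 were lower and 6 higher in both detrained libraries (median -0.10). By tags per peak 9 were lower and 8 higher (median -0.02). Peaks of one gene are not independent. Per kb Pfkfb3 gave more of the lower peaks than any other HIF target, and Ddit4 more of the higher ones. Among the 13 of HIF partners and regulators 6 were lower and 1 higher per kb (median -0.12), and 7 lower and 2 higher per peak (-0.10). Of these genes Cited2 gave more of the lower peaks per kb than any other. The angiopoietin receptors Tek and Tie1 with Angpt4 and Angptl4 had 7 shared peaks, 3 higher and 1 lower per kb (median 0.13), and the direction turned per peak, with 2 higher and 3 lower (-0.17). Flt4, Nrp2 and Vegfd, the further VEGF genes with a peak, had 5 shared peaks, 1 higher and 0 lower per kb (median 0.02). Per peak there was 1 each way (0.03). No peak was listed under Nrp1.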

How the data were processed

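Quadriceps H3K27ac was compared between 2 groups of 2 ChIP-seq libraries, each group with 1 input. Alignment to mm10 was done by the authors with Bowtie (version 1.2 in the submitters' processing notes), and HOMER called the peaks of each group against its own input. Each group has its own deposited table. As signal, the authors deposited the tags of both libraries in a peak per 10000000. For single libraries the authors gave log2 values from DESeq2 run through HOMER, regularized within a table and so shrunken. The authors' log2 fold over input and adjusted p-value of each peak were used only to filter peaks.

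Pooled tags were shared out between libraries by library total times 2 raised to the log2 value. Density was (tags + 0.5) per kb per 10000000 total tags. Differences are means of log2 density. Shared peaks matched one to one, with 50% or more of both covered. Alternatives were tags per peak, cover, normalization, tags added, stricter peaks, distance, the deposited log2 values and leaving out each library. The columns C2 and C3 were assigned to the control group only, since the labels number those libraries otherwise. Peaks were placed on GRCm38.p6, which is mm10. Start sites implied by the deposited distances lay within 100 bp of a RefSeq start for 94.6% of control peaks checked. No test was made between groups. All 10 genes are named, with values in every library for the peak nearest the start, the one with most tags and each pair at least 1.5-fold apart; pathway genes are named when a shared peak is at least 1.5-fold apart without overlap. The genes, lists and motifs were chosen with earlier results of these data known. Peaks singled out beyond that rule, those without overlap among them, were chosen after their values were seen. The steps were tested on simulated data. The tools were matplotlib 3.10.9, pysam 0.24.0, scipy 1.17.1, pandas 2.3.3, numpy 2.4.6 and Python 3.11.15.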

Additional observations from a re-analysis of the deposited data

How the results depend on the processing

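With 44 shared peaks as reported, the median log2 difference was 0.02 and ranged from -0.10 to 0.16 when each library was left out in turn. It was 0.20 by tags per peak, 0.21 by the deposited log2 values and 0.18 in blocks, where the medians of all shared peaks (all blocks for the last) were -0.02, -0.02 and -0.01. Peaks without overlap numbered 12 of 44 as reported (48.5% of all shared peaks), 22 by tags per peak (53.4%) and 22 by the deposited log2 values without length (54.1%). Normalized to tags in listed peaks there were 17 (49.9%), 11 higher and 6 lower. With 80% of each peak covered there were 3 of 18 (40.3%), and with stricter peaks (4-fold or more above input, adjusted p under 0.001) 7 of 30 (50.4%). When a library was left out there were 25 to 32 of 44 (72.2% to 76%), where fewer libraries overlap less by construction. The reported split of 6 higher and 6 lower turned on the library left out. It was 7 and 18 without C2, 19 and 9 without C3, 8 and 19 without Ex1, and 21 and 11 without Ex2. Peaks at least 1.5-fold apart without overlap numbered 1 as reported (3.16%), 10 by tags per peak (10.6%), 12 by the deposited log2 values (11.7%), 0 with 80% covered (0.906%), 2 when normalized to tags in listed peaks (3.14%), 2 when centred on the median of all shared peaks (3.09%), and 1 to 7 when a library was left out (4.46% to 5.69%). Without C2 there were 7, without Ex1 5 and without Ex2 3. With overlapping peaks merged into blocks, an alternative chosen after seeing the data, 30 of 55 blocks had no overlap (22 higher, 8 lower; 57.6% of all blocks had none) and 17 were at least 1.5-fold apart (18.3%). Stricter peaks left 38 control and 43 detrained peaks of the 10 genes.

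Length turned the direction of 3 shared peaks without overlap. By tags per peak, by the deposited log2 values and in blocks, the Vegfc peak was 0.39, 0.40 and 0.40, the Kdr peak at the 3′ end -0.094, -0.11 and -0.094, and the Hif1a start site peak -0.10, -0.10 and -0.10. Per kb of listed peak the gene sums turned for 6 of the 10 genes: Vegfc (-0.52), Hif1a (-0.13) and Angpt1 (0.30), whose summed tags did not overlap between groups, and Vegfa (0.06), Kdr (-0.12) and Epas1 (-0.04), whose sums did. The Pgf intron peak kept its direction, from -1.16 to -0.25. Of 251 values for 21 single peaks, 200 moved by less than the spread between libraries. The pathway lists by tags per peak, and Car9 and Pfkfb3 without each library, were also added after seeing the data. No paired analysis was possible because no test between groups was made and the numbers in the control column names (2 and 3) are not those of the labels.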

Other observations

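Fibroblast marker genes (Pdgfra, Col1a1, Dcn and Lum) had 7 shared peaks, of which 5 had both detrained libraries above both control libraries and 0 both below (21.3% and 27.2% of all shared peaks), with a median log2 density difference of 0.25. By tags per peak 5 were higher and 1 lower (24.7% and 28.8% of all shared peaks), with a median of 0.20. Their summed tags were 1814 and 1795 per 10000000 in control and 2130 and 2248 in detrained libraries, over 47.8 and 54.3 kb of listed peak. These are values of 4 libraries, and no test was made.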
